A study of Arabidopsis thaliana with 12 samples.

Results

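The INDETERMINATE DOMAIN (IDD) genes encode plant C2H2 zinc finger transcription factors. The 8 genes described here are JKD (JACKDAW, AT5G03150), BIB (BALDIBIS, AT3G45260), MGP (MAGPIE, AT1G03840), NUC (NUTCRACKER, AT5G44160), IDD1 (AT5G66730), IDD2 (AT3G50700), IDD4 (AT2G02080) and IDD5 (AT2G02070), taken by their locus identifiers from a table of 32833 Arabidopsis thaliana genes. The set was put together because IDD4 stood out in the genotype by BAP interaction of these same libraries, that is, in the difference between the BAP response of ago10-1 and that of Col-0. The interaction values of all 8 genes, and the single comparisons of IDD4 that make it up, are therefore given as a description without a test. RNA-seq was performed on root tips of plate-grown seedlings 6 days after germination, in 4 groups of 3 libraries. These were ago10-1 sprayed with the synthetic cytokinin 6-benzyladenine (BAP, 1 µM, 2 h), ago10-1 mock, Col-0 with BAP and Col-0 mock. ago10-1 is a T-DNA insertion line of ARGONAUTE10 (AGO10) in the Col-0 background, and Col-0 is the wild type. The plants labelled mock were left unsprayed according to the study's methods. Each library came from 50 mg of pooled root tips, so all cell types of the tip contribute to a value.

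IDD proteins bind DNA through a conserved block of zinc fingers and act together with GRAS family proteins. In the root ground tissue, the GRAS proteins SHORT-ROOT (SHR) and SCARECROW (SCR) set the asymmetric division that separates endodermis from cortex. JKD and BIB hold SHR in the nucleus and limit its movement, and MGP and NUC are direct targets of SHR. IDD1 (ENHYDROUS) and IDD2 (GAF1) bind DELLA proteins, the GRAS repressors of gibberellin signalling, and IDD2 takes part in the feedback on gibberellin synthesis genes. NUC, also named IDD8, controls sugar metabolism and flowering, IDD5 (RAVEN) regulates starch synthase expression, and IDD4 represses immune responses in leaves.

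All 8 genes lie on chromosomes 1, 2, 3 and 5. IDD4 and IDD5 lie close together on chromosome 2, at chr2:518079-521737 on the minus strand and chr2:505375-510781 on the plus strand of TAIR10.1, with 7297 bases between them. The stretches below encode the first zinc finger of 4 of the proteins. They are shown because IDD4 and IDD5 lie close together and have nearly the same finger, and JKD and BIB stand for the ground tissue pair. Each runs 5′ to 3′ along the coding strand, and capitals mark the codons of the cysteines and histidines that hold the zinc.
IDD4, chr2:520536-520598, minus strand: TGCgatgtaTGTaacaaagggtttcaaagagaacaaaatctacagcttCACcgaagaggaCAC
IDD5, chr2:506030-506092, plus strand: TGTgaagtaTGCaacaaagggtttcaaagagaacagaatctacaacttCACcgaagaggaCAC
JKD, chr5:746472-746534, plus strand: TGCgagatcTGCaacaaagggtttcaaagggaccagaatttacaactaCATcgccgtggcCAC
BIB, chr3:16598099-16598161, minus strand: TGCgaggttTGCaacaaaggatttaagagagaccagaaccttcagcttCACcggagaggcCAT
IDD4 and IDD5 differ at 5 of these 63 bases and share 20 of the 21 encoded residues, whereas IDD4 and JKD differ at 15 bases and share 18 residues. Over the whole protein, IDD4 and IDD5 were identical at 53.2% of aligned residues. The 28 pairs ranged from 45.1% to 77.7%, with IDD1 and IDD2 the closest pair. The longest stretch shared between any pair of transcripts was 47 bases, between IDD4 and IDD5. No annotated gene overlaps any of the 8.

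The 250 bases before the annotated IDD4 start, chr2:521738-521987 on the minus strand, are shown because IDD4 is the member that set this family apart.
IDD4 upstream: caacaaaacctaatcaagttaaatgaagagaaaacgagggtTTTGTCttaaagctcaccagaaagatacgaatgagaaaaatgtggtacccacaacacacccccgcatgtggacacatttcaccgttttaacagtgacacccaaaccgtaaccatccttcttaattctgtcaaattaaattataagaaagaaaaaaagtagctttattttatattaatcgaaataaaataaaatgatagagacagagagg
Capitals mark TTTGTC, the core letters of sites bound by IDD proteins, which were searched on both strands. These letters occur upstream of 3 of the 8 genes (IDD1, IDD2 and IDD4) and of 24.1% of 27443 protein-coding genes. AGATCT, one spelling bound by type-B response regulators of the cytokinin pathway, occurs upstream of JKD only among the 8, and of 5.98% of all genes. AGATTC occurs upstream of none of the 8 and of 16.4% of all genes, and AGATTT of IDD1, IDD2 and IDD5 and of 34.4% of all genes. These are letter matches, not shown binding sites. No other spelling bound by type-B response regulators was searched, so stretches in lower case, also those of IDD4, can hold one.

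The libraries held 19394256 to 34899796 reads on genes. AGO10 itself had 130.4, 175.1 and 167.3 normalised counts in ago10-1 with BAP and 187.2, 174.6 and 137.9 in ago10-1 mock, against 568.1, 925.6 and 1050.7 in Col-0 with BAP and 1039.8, 695.8 and 914.2 in Col-0 mock, so the genotype labels held in every library. A gene was called at the study's threshold, an unadjusted p under 0.01, but in limma where the study used DESeq2. Calls were made among 19206 genes with a mean of at least 10 normalised counts, and all 8 IDD genes passed that filter. For BAP, limma called 109 genes in ago10-1 and 29 in Col-0. DESeq2 on reads recovered from the counts called more, 291 and 74. Of the 10 type-A response regulators, the immediate targets of cytokinin, ARR8 (log2 fold change 0.43 ± 0.0909, SE) and ARR9 (0.41 ± 0.118) were called higher with BAP over both genotypes. Of all genes, 1.48% were called in that comparison. The 10 regulators had 8 positive and 2 negative values in it. In ago10-1 alone and in Col-0 alone, 0 of the 10 were called for BAP, where 0.568% and 0.151% of all genes were. The replicate 1 libraries stood apart in every group: 5505 genes, 28.7% of those tested, were called between replicate 1 and the other replicates. For Col-0 mock, the headings tell only replicate 1 apart, so the other libraries of that group are named A and B here.

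The IDD genes differed widely in level. Per kilobase of exon, JKD averaged 529 normalised counts over the 12 libraries, IDD1 averaged 385, MGP averaged 308 and NUC averaged 216. IDD5 averaged 132.5, IDD4 averaged 98.0, and BIB and IDD2 averaged 60.5 each. JKD stood above the others, since its lowest library (477.6 per kilobase) exceeded the highest of IDD1 (460.5). The lowest library of NUC (176.7 per kilobase) exceeded the highest of IDD5 (170.8). Between these steps neighbours overlapped, IDD1 with MGP, MGP with NUC, IDD5 with IDD4, IDD4 with IDD2 and IDD2 with BIB. SHR averaged 541 and SCR 514.5 per kilobase, close to JKD. Among the 8 other IDD genes, IDD14 (270.7 per kilobase) was the most abundant, IDD12 had no read in any library and IDD13 had reads in 1 library.

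**Figure D1:**
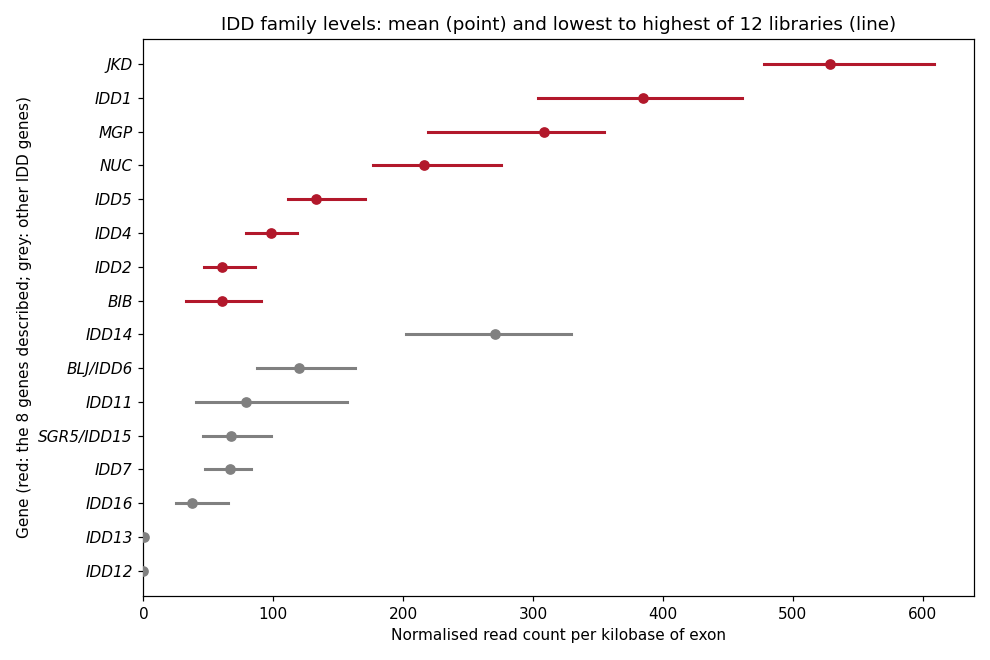
Normalised read counts per kilobase of exon (x axis) for the 8 IDD genes described (red) and the 8 other IDD genes (grey); points are means and lines span the lowest to the highest of 12 libraries. JKD lies above every other member, while IDD4, IDD5, IDD2 and BIB form the low end.

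IDD4 was highest in ago10-1 after BAP. It had 280.9, 273.1 and 267.7 normalised counts in ago10-1 with BAP, against 187.2, 214.1 and 200.8 in ago10-1 mock. In Col-0 it had 225.9, 197.7 and 228.4 with BAP, against 249.3, 220.9 and 241.1 in mock. Every ago10-1 library with BAP lay above all 9 others, and the ago10-1 mock libraries lay below all Col-0 mock libraries. The means were 273.9 ± 6.66 in ago10-1 with BAP, 200.7 ± 13.4 in ago10-1 mock, 217.3 ± 17.0 in Col-0 with BAP and 237.1 ± 14.6 in Col-0 mock (SD, n = 3 each). In bulk root tips, fewer cells with a transcript and less transcript per cell cannot be told apart.

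Groups that do not overlap were found for 9.2% of all genes for BAP in ago10-1, 6.96% for ago10-1 without BAP and 3.59% for ago10-1 after BAP, and IDD4 was among them in each. As log2 differences, BAP over mock was 0.45 in ago10-1 and -0.13 in Col-0 for IDD4, and ago10-1 over Col-0 was 0.34 after BAP and -0.24 without it. The difference of the responses was 0.57 ± 0.179 (SE). IDD4 had rank 4 of 19206 genes in this contrast and was the only one of 4 genes past the threshold with a positive difference (0.00521% of all genes). Past the threshold in either direction were 0.0208% of all genes, fewer than the 192 genes that the threshold passes by chance, and the smallest adjusted p over all genes was 1. The gene at rank 3, AIB, had a difference of -1.28 ± 0.359, and the next outside the threshold, AT1G64563, had 1.85 ± 0.599. By size alone 1357 genes had a larger difference than IDD4. Its spread within groups was narrow, a residual SD of 0.0891 on the log2 scale. The median was 0.275 for the 5503 genes of similar level, of which 0.727% had a smaller one. The rank sets the difference against this spread, so a narrow spread is part of how IDD4 was chosen. The 3 root cap markers SMB, BRN1 and BRN2 also had positive differences of response, with a median of 0.97. So had all 8 Casparian strip genes, with 0.132 to 0.391, and none of these passed the threshold. Over all genes, 52.4% of the differences were positive. Other marker lists were mixed, with positive differences for 4 of 5 root hair, 3 of 4 tested green tissue and 3 of 4 stele genes. The same held for 2 of 4 stem cell niche and 2 of 6 cell division genes. After BAP, ago10-1 over Col-0 was positive for BRN1 and BRN2 and -0.00449 for SMB. The summed level of the root cap markers spanned 1123 to 1746 in ago10-1 with BAP and 594 to 1376 in ago10-1 mock. It spanned 988.3 to 1478 in Col-0 with BAP and 1294 to 1596 in Col-0 mock. The low sum in ago10-1 mock was that of replicate 2 alone, against 1238 in replicate 1 and 1376 in replicate 3. The positive differences of the root cap markers thus rest in part on that library. None of these markers was at 0, and their part in the IDD4 values was not tested.

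**Figure D2:**
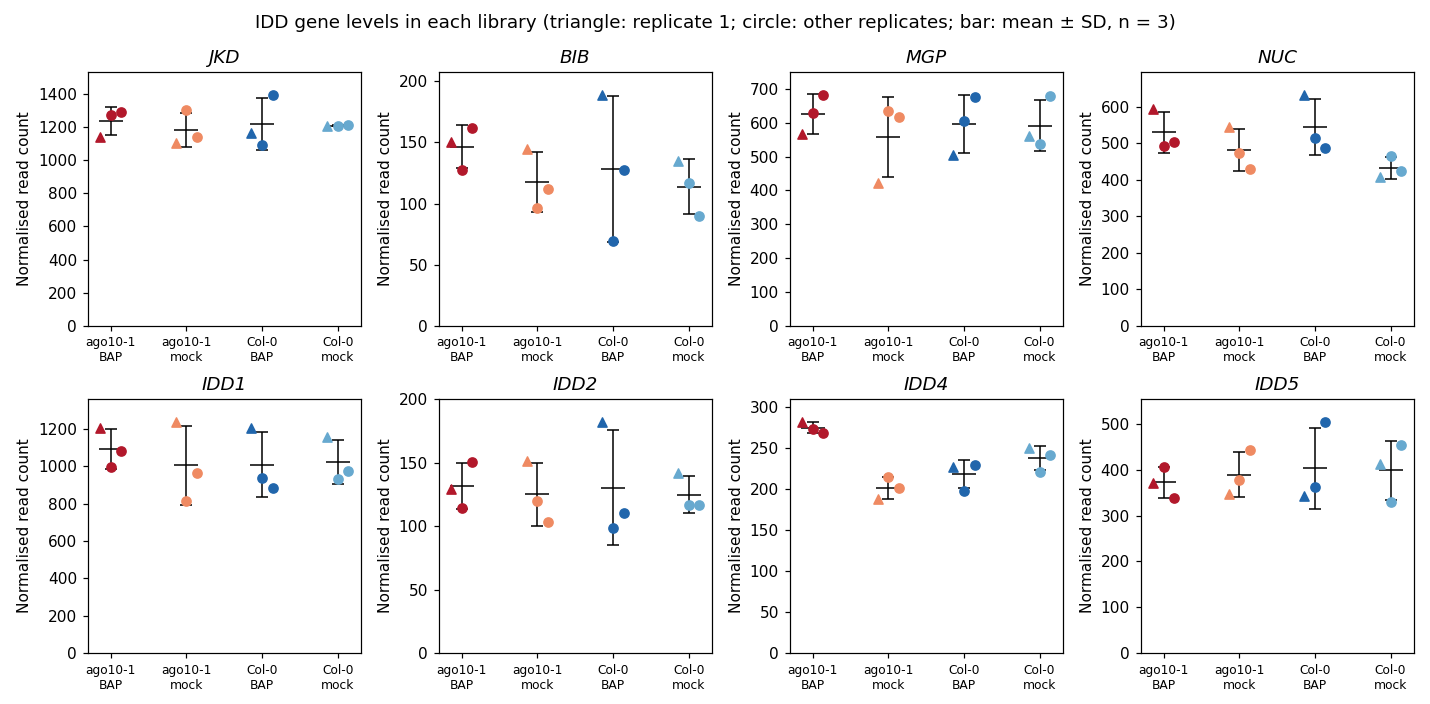
Normalised read counts (y axis, from 0) of the 8 genes in each library by group; triangles are replicate 1, circles the other replicates, and bars mean ± SD (n = 3). For IDD4 the 3 ago10-1 libraries with BAP sit at 267.7 to 280.9, above every other library, while groups of the other genes mostly overlap.

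For IDD5, whose first finger is closest to that of IDD4, the groups overlapped in every comparison. It had 372.0, 406.6 and 337.6 normalised counts in ago10-1 with BAP, against 347.5, 376.8 and 443.8 in ago10-1 mock. It had 342.2, 362.1 and 503.6 in Col-0 with BAP, against 412.4, 328.8 and 454.9 in Col-0 mock. Its BAP effect was -0.06 ± 0.150 in ago10-1 and 0.01 ± 0.213 in Col-0 (log2, SE). Whether the response of IDD5 differs from that of IDD4 was not tested, since IDD4 was chosen for its pattern. After group means were removed, the log2 values of IDD4 and IDD5 correlated with r = 0.523 over the 12 libraries. Before removal r was 0.0769. JKD with IDD4 had 0.551 after removal, so the value was not particular to IDD4 and IDD5.

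Among the ground tissue genes, JKD was the steadiest, with a residual SD of 0.121 against a median of 0.199 for genes of similar level. It had 1139.5, 1272.9 and 1293.5 normalised counts in ago10-1 with BAP, against 1106.1, 1301.7 and 1141.0 in ago10-1 mock. It had 1162.1, 1093.6 and 1393.8 in Col-0 with BAP, against 1208.8, 1203.7 and 1212.1 in Col-0 mock. Groups overlapped throughout, and its pooled BAP effect of 0.03 had a 95% interval of -0.132 to 0.198. BIB, which acts redundantly with JKD, had 150.6, 127.2 and 162.0 counts in ago10-1 with BAP, against 144.4, 96.4 and 112.0 in ago10-1 mock. In Col-0 it had 188.9, 69.1 and 127.5 with BAP, against 134.7, 116.5 and 89.9 in mock. BIB varied most within groups, with a residual SD of 0.426 on the log2 scale against a median of 0.337 for genes of its low level. The 95% interval of its pooled BAP effect was wide, -0.284 to 0.691, so changes within that range were not excluded at this depth and replication.

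With IDD4 set aside, NUC came closest to a BAP effect, both pooled and in Col-0. It had 593.3, 492.1 and 503.4 normalised counts in ago10-1 with BAP, against 543.3, 473.1 and 429.2 in ago10-1 mock. It had 632.4, 514.6 and 486.6 in Col-0 with BAP, against 406.5, 465.3 and 423.2 in Col-0 mock. In Col-0 all 3 BAP libraries lay above all 3 mock libraries, a separation shown by 5.25% of all genes, whereas in ago10-1 the groups overlapped. Over both genotypes the BAP effect was 0.23 ± 0.0986 (log2, SE), with an unadjusted p of 0.0362 and an adjusted p of 0.766 in limma, and an exact two-sided permutation p of 0.03 where 0.005 is the smallest possible. The effect did not reach the threshold. MGP, the other SHR target, had 566.4, 628.6 and 682.1 counts in ago10-1 with BAP, against 420.9, 633.5 and 617.0 in ago10-1 mock. In Col-0 it had 505.1, 606.3 and 675.7 with BAP, against 560.1, 535.8 and 678.3 in mock. Its groups overlapped in each comparison.

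The DELLA-binding pair differed widely in level. IDD1 had 1206.9, 995.6 and 1082.1 normalised counts in ago10-1 with BAP, against 1237.0, 815.9 and 963.5 in ago10-1 mock, and 1207.3, 937.5 and 886.0 in Col-0 with BAP, against 1158.0, 934.1 and 976.1 in Col-0 mock. IDD2 had 129.2, 114.7 and 150.6 in ago10-1 with BAP, against 151.7, 120.1 and 103.4 in ago10-1 mock, and 182.1, 98.9 and 110.5 in Col-0 with BAP, against 141.8, 116.5 and 116.5 in Col-0 mock. For both genes the groups overlapped in every comparison. After group means were removed, their log2 values correlated with r = 0.752 over 12 libraries. The value was 0.838 for BIB with IDD2 and 0.67 for BIB with IDD1, so it was not particular to this pair, and all of these libraries share the replicate 1 offset described below.

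**Figure D3:**
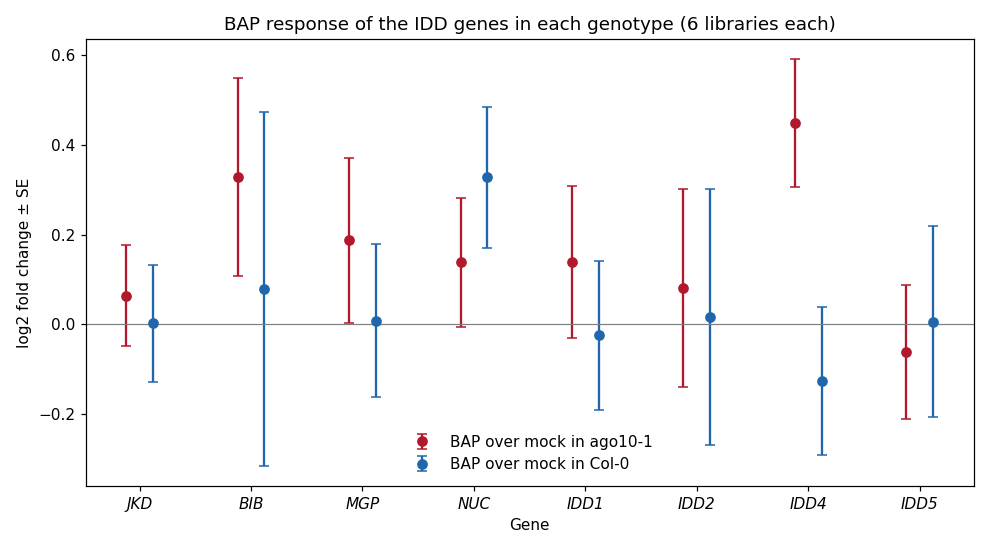
BAP response of each gene, as log2 fold change of BAP over mock ± SE (y axis), in ago10-1 (red) and in Col-0 (blue), 3 libraries against 3 in each. IDD4 is the gene whose responses lie furthest apart, 0.45 in ago10-1 and -0.13 in Col-0; this is the contrast it was chosen on.

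No member was called for BAP or ago10-1 pooled, and none of the 7 genes other than IDD4 in the single comparisons. Pooled over genotypes, 0 of 8 IDD genes were called for BAP, where 1.48% of all genes were. Pooled over treatments, 0 of 8 were called for ago10-1, where 0.802% of all genes were. NUC in the BAP comparison was the only member with an unadjusted p under 0.05. Of the 7 genes other than IDD4, 0 were called for BAP in ago10-1 (all genes 0.568%), BAP in Col-0 (0.151%), ago10-1 without BAP (0.437%) and ago10-1 after BAP (0.13%) by limma, with 0 at p under 0.05. edgeR and DESeq2 on the recovered reads also called 0 of them. In fits that paired libraries by a replicate block, BAP in ago10-1 had 979 genes called rather than 109. With the block, ago10-1 without BAP had 182 or 309 rather than 84, and pooled BAP had 623 or 630 rather than 285. The pairs of counts depend on how libraries A and B are numbered. No member was among the genes called for pooled BAP. In the single comparisons, none of the 7 genes other than IDD4 was among them, and calls of IDD4 were not counted. Pooled ago10-1 effects of the 8 genes ran between -0.06 for IDD5 and 0.17 for BIB. The median of the 8 was 0.0774 for BAP and 0.0324 for ago10-1, against 0.0105 and 0.00671 over all genes.

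**Figure D4:**
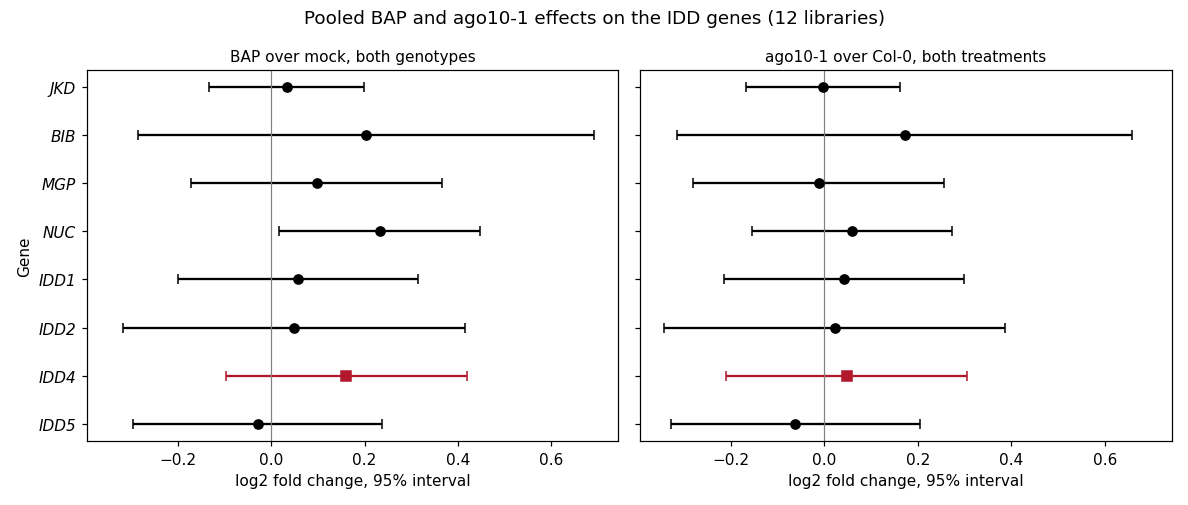
Log2 fold changes with 95% intervals (x axis) for BAP over mock in both genotypes (left) and ago10-1 over Col-0 in both treatments (right), 12 libraries each. Only the BAP interval of NUC, 0.0177 to 0.447, leaves out 0, and IDD4 is drawn as a red square.

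Between replicate 1 and the other replicates, 2 of the 8 genes were called, a share not above that of all genes. This comparison was added after the data were seen. IDD1 was higher in replicate 1 than in the other replicates by 0.35 ± 0.0724 on the log2 scale (adjusted p = 0.00685, limma) and was highest in replicate 1 in 4 of 4 groups, as were 15.3% of all genes. MGP was lower by 0.31 ± 0.0953 (adjusted p = 0.0313, limma), and replicate 1 was its lowest library in 3 of 4 groups. These 2 of 8 calls compare with 28.7% of all genes. The MGP call was lost when any 1 of 9 of the 12 libraries was left out, every library but replicate 2 of ago10-1 with BAP and replicate 1 and library A of Col-0 mock, while that of IDD1 held in all 12 fits. MGP values ran between -0.373 and -0.219 over these fits. NUC (0.18 ± 0.0885) was called only without replicate 1 of Col-0 mock, at 0.29. BIB (0.48 ± 0.198) and IDD2 (0.37 ± 0.149) had positive values that did not pass. IDD4 differed by 0.03 ± 0.0931, an interval of -0.179 to 0.232. Casparian strip genes, which mark the differentiating endodermis, were called higher in the same libraries for 6 of 8, CASP5 by 1.70 and CASP1 by 1.13. Values of the 8 ran from -0.866 to 1.70, with 7 positive and 1 negative. Gibberellin genes moved in both directions: the receptors GID1A, GID1B and GID1C were higher by 0.59 to 0.80, and GA20OX1, GA20OX2, GA20OX3 and GA3OX2, which encode enzymes of gibberellin synthesis, were lower. The part of these genes in the IDD values was not tested.

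**Figure D5:**
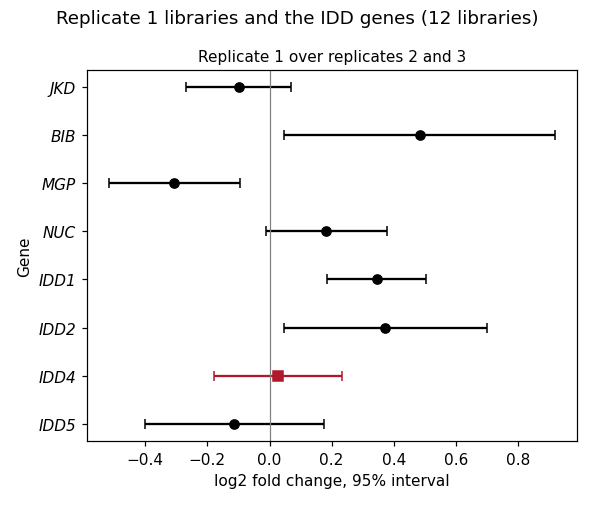
Log2 fold changes with 95% intervals (x axis) of replicate 1 libraries over the other replicates for the 8 genes, with group in the model. IDD1 lies at 0.35 and MGP at -0.31, on opposite sides of 0, and IDD4 (red square) lies at 0.03.

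Genes tied to the IDD proteins were counted in the BAP, ago10-1 and interaction comparisons, leaving aside that of replicate 1. None of the 9 GRAS partners was called in any of them. SHR in ago10-1 without BAP came closest in the group (0.34 ± 0.133, adjusted p = 0.999 in limma), and SCR was not called. None of 6 other SHR target genes, 8 Casparian strip genes, 8 gibberellin feedback genes, 7 corepressor and kinase genes, 6 IDD target genes and 6 tested other IDD genes was called in these comparisons. MYB36, the regulator of Casparian strip formation, had a BAP effect of 0.36 ± 0.172 over both genotypes, short of the threshold. The lists were chosen with earlier results of these data known.

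Across the 12 libraries, the gene most like IDD4 was AT5G16940 (Pearson r = 0.875 on log2 values), followed by AT3G16565 (0.811), AT1G63830 (0.762), HAF2 (0.734) and AT1G34418 (0.732). The most opposed were AT1G02260 (-0.891), AT2G11891 (-0.869) and AT2G26110 (-0.836). The best match was AT4G32800 for JKD (0.840), AT2G22690 for BIB (0.933), AT4G26810 for MGP (0.918) and AT3G22560 for NUC (0.960). It was WAKL5 for IDD1 (0.950), GT-1 for IDD2 (0.968) and ROPGEF6 for IDD5 (0.946). Each value was picked as the extreme of 19205 genes over the same libraries, so it is a description. These libraries carry the replicate 1 offset, although IDD4 itself differed there by 0.03 ± 0.0931 (log2, SE). The correlations of IDD4 include the group pattern on which it was chosen.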

How the data were processed

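Total RNA of Arabidopsis root tips was sequenced in 12 libraries. The authors aligned reads with STAR to TAIR10, counted them with featureCounts and deposited gene-level normalised counts (a signal on a common scale; the submitters' processing notes name DESeq2). Dividing each column by its step returned whole reads for 100% of values (tolerance 1e-06). The members and gene lists were chosen with earlier results of these data known. Tests were limma 3.58.1 (trend) in R 4.3.3 on log2(normalised count + 1), for genes with a mean of at least 10. Fold changes are on this log2(count + 1) scale, which understates those of low genes. Single comparisons used their own 6 libraries, pooled ones all 12 with the other factor. p-values were adjusted by Benjamini-Hochberg over all 19206 genes. edgeR 4.0.16 and DESeq2 1.42.0 on the recovered reads, a pseudocount of 8, no filter, blocks and left-out libraries were alternatives. Fits were tested on simulated data. Nothing states whether replicates came from separate plant cultures, so p-values measure the spread between these libraries. Same-numbered libraries deviated together (r = 0.287 to 0.777 between the BAP groups, 0.406 to 0.67 within ago10-1). Some differently numbered libraries did as well (ago10-1 BAP 2 with Col-0 BAP 3, r = 0.657, and with ago10-1 mock 3, r = 0.324). The main fits did not pair libraries, so their p-values leave this out. Pairing by number was run only as an alternative, the replicate block, with both numberings of libraries A and B. Named genes were the 8 members, AGO10, SHR, SCR, list members called or, failing that, up to 3 with the smallest p per list and comparison, and the closest correlates. Exon lengths, coordinates and sequences came from the RefSeq annotation of TAIR10.1; 458 of 458 gene coordinates compared were equal to those of the study. Proteins were translated from the annotated coding sequences and aligned with mafft 7.526. The values of 1 gene of the lists are not reported here.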

Additional observations from a re-analysis of the deposited data

Results flagged for a closer look

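IDD4 differed between the genotypes in its BAP response: the difference of log2 responses, ago10-1 minus Col-0, was 0.575. It was picked because this contrast put it among the leading genes of 19206, so the value is a description and no independent test of it exists in these libraries.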

How the results depend on the processing

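No IDD gene was called in any alternative of the pooled comparisons. In those of the single comparisons no IDD gene other than IDD4 was called, and calls of IDD4 were not counted there. Over both kinds, 784 log2 values were recomputed, and 84 of them changed sign, 82 of these with a library or replicate 1 left out. The IDD4 difference of responses ran between 0.50 and 0.63 over 20 alternatives. Under edgeR, IDD2 was 0.000455 for ago10-1 without BAP and -0.00177 after BAP. The replicate block changed no call of a counted member.

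Counts of all genes called moved more. For pooled BAP, DESeq2 gave 553, the replicate block 623 or 630 and the block of replicate 1 alone 646, and left-out libraries gave 164 (without Col-0 mock B) to 495 (without Col-0 BAP 3). For pooled ago10-1 the replicate block gave 358 or 344 and the replicate 1 block 365, with 96 (without ago10-1 mock 1) to 336 (without Col-0 BAP 1). For BAP in ago10-1, no filter gave 234, DESeq2 291, the replicate block 979, the replicate 1 block 422 and a spread shared by all libraries 67, with 28 (without ago10-1 BAP 3) to 623 (without ago10-1 BAP 2). For BAP in Col-0 these were 138, 74, the replicate block with A as replicate 2 at 64, 67 and 75, with 9 (without Col-0 mock B) to 82 (without Col-0 BAP 1). For ago10-1 without BAP, no filter gave 181, the replicate block 309 or 182 and the replicate 1 block 174, with 46 (without ago10-1 mock 2) to 94 (without Col-0 mock A). For ago10-1 after BAP, no filter gave 122, DESeq2 51, the replicate block 52, the replicate 1 block 85 and the shared spread 49, with 6 (without ago10-1 BAP 3) to 138 (without Col-0 BAP 1). For the interaction, no filter gave 51, DESeq2 13, the replicate block 9 or 11 and the replicate 1 block 12, with 4 to 39 (without Col-0 BAP 1). Replicate 1 against the others gave 3243 (without Col-0 BAP 1) to 6376 genes and 1 to 3 members. The cause of these moves was not tested.

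With libraries left out, the values that changed sign had these ranges. Pooled BAP: JKD -0.00892 to 0.0688, IDD1 -0.0139 to 0.119, IDD2 -0.0658 to 0.128, IDD5 -0.108 to 0.0191. Pooled ago10-1: JKD -0.0391 to 0.0387, MGP -0.0731 to 0.0817, BIB -0.0134 to 0.314, IDD1 -0.0194 to 0.114, IDD2 -0.0579 to 0.136, IDD4 -0.0137 to 0.101, IDD5 -0.125 to 0.0177. BAP in ago10-1: MGP -0.00296 to 0.291, IDD1 -0.000342 to 0.300, IDD2 -0.0463 to 0.236, IDD5 -0.142 to 0.0360. BAP in Col-0: JKD -0.0998 to 0.0750, MGP -0.0879 to 0.122, BIB -0.254 to 0.464, IDD1 -0.160 to 0.0679, IDD2 -0.249 to 0.188, IDD5 -0.166 to 0.143. ago10-1 without BAP: JKD -0.105 to 0.0128, MGP -0.207 to 0.0878, BIB -0.111 to 0.179, IDD1 -0.200 to 0.100, IDD2 -0.158 to 0.117, IDD5 -0.161 to 0.0803. ago10-1 after BAP: JKD -0.0453 to 0.130, MGP -0.0368 to 0.173, NUC -0.120 to 0.0766, BIB -0.0891 to 0.630, IDD2 -0.118 to 0.328, IDD5 -0.204 to 0.0755. For replicate 1 against the others, IDD4 ranged over -0.00136 to 0.0844.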
